A study of Mus musculus with 8 samples.

Results

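The expression of 10 genes tied to chloride, bicarbonate and sodium transport across the airway epithelium was followed in mouse airway libraries. The libraries differ in the number of floxed alleles of Cdh1. The genes were chosen by symbol, for their part in airway surface liquid and in chloride or sodium transport: Scnn1a, Scnn1b, Scnn1g, Cftr, Slc26a4, Slc26a9, Slc12a2, Ano1, Clca1 and Gabrp. All 10 symbols matched a row among the 55401 genes of the count table, and all 10 passed the filter on low counts, which kept 16964 genes.

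The mutant group held 4 libraries of the genotype Scgb1a1cre; Cdh1F/F, and the control group 4 libraries of the genotype Scgb1a1cre; Cdh1F/+. Both groups therefore carried the Cre and a floxed allele of Cdh1, the E-cadherin gene, and both were sampled 10 days after tamoxifen. Scgb1a1 encodes the main secreted protein of club cells, so the Cre acts in cells that use that gene, and other cells of a library keep their alleles. Cells were sorted by GFP after EPCAM enrichment and loss of endothelial and immune cells, per the design text of the series, but the labels say only "airway cells" and name no fraction or animal. The column headers also hold a separate number for each library, and what that number marks is not stated. The p-values therefore reflect only library-to-library spread, which may be technical.

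A thin film of liquid lies over the airway epithelium, and its volume and pH are set by ion transport. Sodium enters cells through the epithelial sodium channel ENaC, built from alpha, beta and gamma subunits (Scnn1a, Scnn1b and Scnn1g), and water follows it out of the lumen. Chloride and bicarbonate leave through the cAMP-gated channel CFTR, the calcium-gated channel ANO1 and members of the SLC26 family, after the basolateral cotransporter NKCC1 (Slc12a2) has loaded chloride into the cell. In mice, raised amounts of the beta subunit dry the airway surface, and pendrin (Slc26a4) and Clca1 are known as genes of airways exposed to interleukin 13.

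Total counts ran from 16981201 to 21673654 in mutant libraries and from 15111663 to 20454930 in control libraries, so 3 counts, the limit that a count of 0 allows, stood between 0.136 and 0.207 CPM (counts scaled to library size, with TMM factors). Control libraries 2 and 3 resembled each other, with a chi-square per gene of 4.88, and controls 1 and 4 gave 19.97. Pairs that joined control 2 or 3 with control 1 or 4 gave 36.4 to 45.6, against 6.12 to 12.7 among mutant libraries. Cdh1 offered no check of the labels, with 403.4 ± 6.08 CPM in mutant and 383.5 ± 44.7 CPM in control libraries (SD, n = 4 each), not called by edgeR's quasi-likelihood test (adjusted p 0.649). Markers of several lung cell types were abundant. Summed CPM of 6 club cell markers ran from 8318 to 10480 in mutant and from 23980 to 25750 in control libraries. Of the 6, 3 were called lower and 1 higher, against 2.36% and 5.45% of all genes tested. Summed CPM of 5 endothelial markers ran from 2355 to 2622 in mutant and from 2904 to 3867 in control libraries, and of 5 alveolar type II markers from 20690 to 26670 and from 18880 to 27320. In such bulk samples, fewer cells of a type and less RNA per cell cannot be told apart.

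Of the 10 transport genes, Slc26a4 rose and Scnn1b fell in mutant libraries, and the other 8 did not pass the test. Calls rest on edgeR's quasi-likelihood test over all genes with Benjamini-Hochberg adjustment at 0.05, which called 7.81% of all genes tested, 5.45% as higher and 2.36% as lower. Mutant and control libraries did not overlap for these 2 transport genes, and for 16.8% of all genes tested. The median log2 fold change of the 10 was 0.19, against -0.01 over all genes tested. A value above 0 was found for 8 of the 10, and for 8322 of all 16964 genes tested. General epithelial markers also moved, with 3 of 4 called higher (Epcam, Krt8 and Krt18, not Cdh1) and a summed CPM of 1149 to 1331 in mutant and 670 to 893.6 in control libraries, without overlap. Their part in the values of the 10 genes was not tested.

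**Figure D1:**
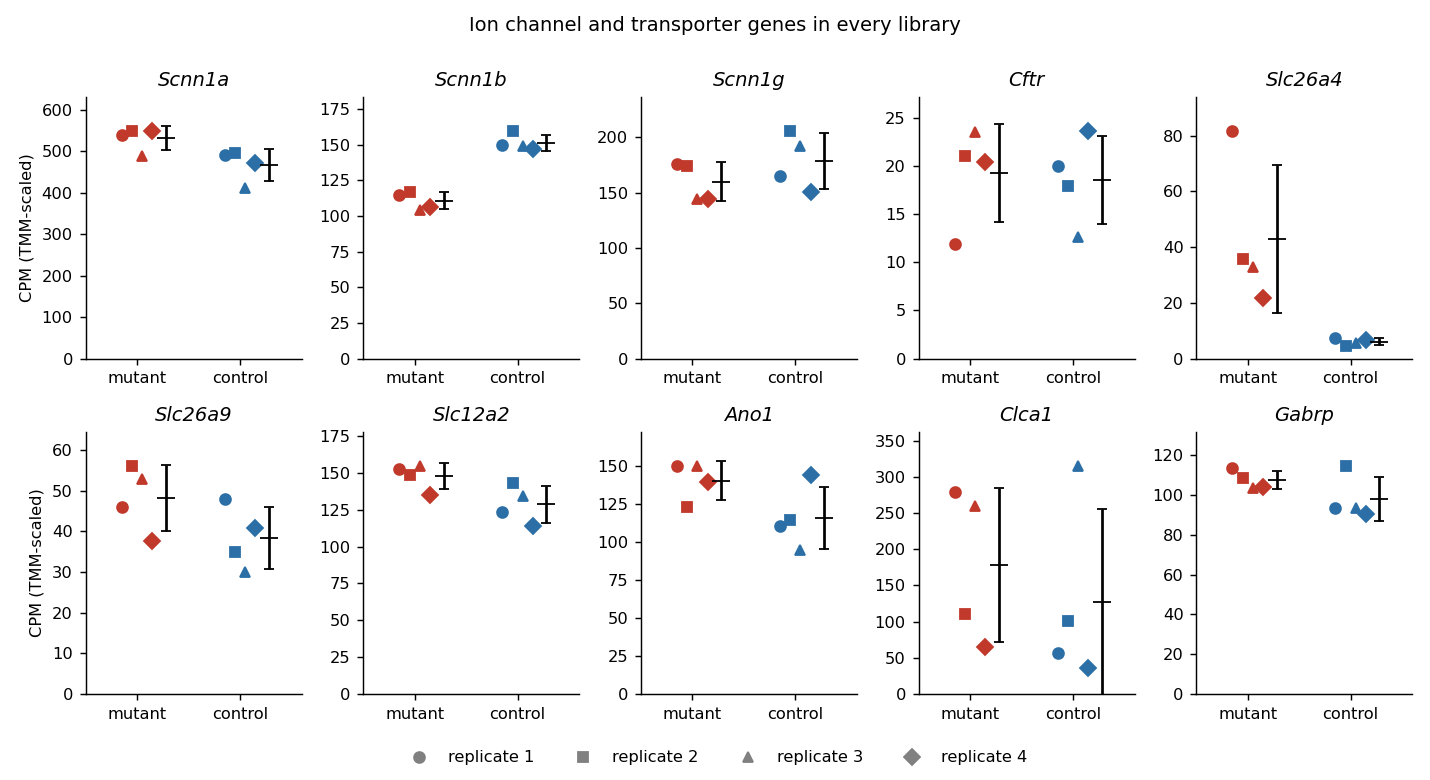
CPM (TMM-scaled) of the 10 genes in each of 4 mutant and 4 control libraries, 1 panel a gene with its own axis from 0; symbols mark the replicate and the black bar the mean ± SD. Slc26a4 lies between 21.6 and 81.7 CPM in mutant libraries, above all controls, Scnn1b lies below all controls, and Clca1 spreads widely within both groups.

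Slc26a4 encodes pendrin, which exchanges chloride for bicarbonate and other anions at the apical membrane. The gene (ENSMUSG00000020651.8, GRCm38 chromosome 12, 31519827 to 31559969, minus strand) had 81.7, 35.8, 32.8 and 21.6 CPM in mutant libraries 1 to 4, against 7.51, 4.62, 5.47 and 6.66 CPM in control libraries 1 to 4. Every mutant library was above every control library, and mutant library 1 stood well above the other mutant libraries. The counts behind these values were 477 to 1420 in mutant and 67 to 156 in control libraries. The fitted ratio was 7.01 with a 95% interval from 3.79 to 12.99, or a log2 fold change of 2.81 ± 0.40 (SE), and the adjusted p was 0.00299 by edgeR's quasi-likelihood test. Among the 924 genes called higher, 50 had a larger fold change, and the median ratio of the 924 was 1.88. The call held when any 1 library was left out, with ratios from 4.92 without mutant library 1 to 8.18 without mutant library 4. Without control libraries 2 and 3 together the log2 fold change was 2.59 and the adjusted p 0.0970, so the call was lost.

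The promoter of Slc26a4 is shown because this gene changed most among the 10. The RefSeq window from 250 bases before to 50 bases after the transcript start (GRCm38.p6, chr12:31559935-31560234, minus strand) reads, with a TATAAA box in capitals:
Slc26a4: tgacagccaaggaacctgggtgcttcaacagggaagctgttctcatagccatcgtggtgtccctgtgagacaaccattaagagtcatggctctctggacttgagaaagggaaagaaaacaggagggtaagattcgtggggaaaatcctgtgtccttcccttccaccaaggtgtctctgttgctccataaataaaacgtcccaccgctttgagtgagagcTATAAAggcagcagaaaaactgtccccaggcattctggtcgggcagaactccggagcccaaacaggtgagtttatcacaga
The box lies 31 to 26 bases before the start, and the window holds 50% G and C, against a median of 52.7% over all 32851 RefSeq windows. TATAAA on either strand occurred in 13.6% of all windows and in 2 of the 7 transport genes with a window, Slc26a4 and Slc26a9. A STAT motif, TTC and GAA with 4 bases between them, which the interleukin 13 factor STAT6 can bind, occurred in 6.95% of all windows and in 0 of these 7. On either strand, 0 of the 7 held the forkhead motif TGTTTAC (3.65% of all windows), the cAMP response element TGACGTCA (1.79%) or the Grainyhead-like motif AACCGGTT (0.146%). These counts say only that the letters are not in these windows.

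Among the ENaC subunit genes only Scnn1b was called, and the subunits were not tested against each other. Scnn1b, the beta subunit (ENSMUSG00000030873.9, chromosome 7, 121865038 to 121918514, plus strand), had 114.7, 116.5, 104.5 and 106.6 CPM in mutant libraries 1 to 4, against 149.5, 159.7, 148.7 and 146.6 CPM in control libraries 1 to 4. The lowest control lay well above the highest mutant library, and both groups were narrow. The fitted ratio was 0.732, with a 95% interval from 0.661 to 0.810, and the adjusted p was 0.00328 by edgeR's quasi-likelihood test. Of the 401 genes called lower, 284 had a larger change. The call held in each of the 8 fits with 1 library left out, at ratios from 0.719 to 0.745, and without controls 2 and 3 (adjusted p 0.0101). The span of Cog7 on the opposite strand overlaps that of Scnn1b, and strand was not used in counting. Cog7 had a log2 fold change of 0.28 ± 0.09 (SE), not called (adjusted p 0.0957). Summed CPM of 4 alveolar type I markers ran from 3298 to 3387 in mutant and from 3307 to 3996 in control libraries. Of these, 1 was called lower and 0 higher, and of 5 alveolar type II markers 0 were called. The part of alveolar cells in the values of the ENaC genes was not tested.

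Scnn1a, the alpha subunit (ENSMUSG00000030340.16, chromosome 6, 125320659 to 125344943), had 538.5, 549.8, 489.8 and 549.7 CPM in mutant libraries, against 492.2, 496.1, 411.7 and 471.6 CPM in control libraries. Mutant library 3 lay just inside the control range, so the groups overlapped. The fitted ratio was 1.14 with a 95% interval from 0.999 to 1.29 (adjusted p 0.203). Scnn1g, the gamma subunit, lies upstream of Scnn1b on the same strand (ENSMUSG00000000216.8, chromosome 7, 121734479 to 121768475). It had 175.7, 174.3, 144.5 and 144.5 CPM in mutant libraries and 165.3, 205.8, 192.5 and 150.8 CPM in control libraries, which overlapped. Its ratio of 0.894, with a 95% interval from 0.748 to 1.07, was not called (adjusted p 0.414). The change of this gene depended on the controls kept. Without controls 1 and 4 the log2 fold change of Scnn1g was -0.32 (adjusted p 0.0194 by edgeR's quasi-likelihood test). That fit called 3750 of all genes higher and 3338 lower, against 924 and 401 with all libraries kept, so a pass there is common.

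Per kilobase of the deposited gene length the alpha subunit was the most abundant of the 10 genes. It stood at 128.7 ± 6.92 CPM per kilobase in mutant and 113.2 ± 9.43 in control libraries (SD, n = 4 each). Beta stood at 42.0 ± 2.25 and 57.4 ± 2.21, and gamma at 53.4 ± 5.89 and 59.7 ± 8.38 CPM per kilobase in mutant and control libraries. As a share of the 3 subunits per length, beta made up 18.2% to 19.2% in mutant and 24.3% to 25.6% in control libraries. These shares are a description, since they combine the values tested above. The ratio of beta to gamma, likewise per length, lay between 0.742 and 0.838 in mutant and between 0.878 and 1.10 in control libraries.

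**Figure D2:**
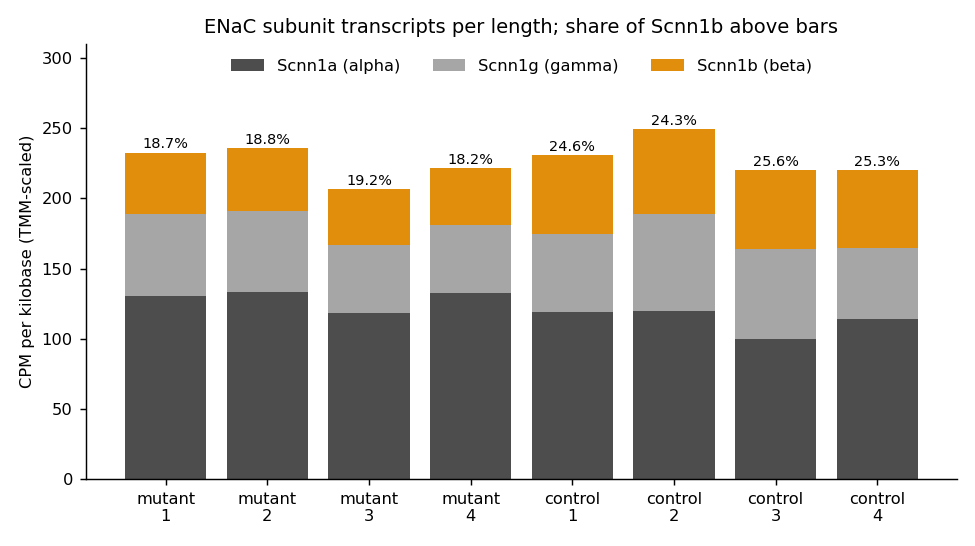
CPM per kilobase of the 3 ENaC subunit genes in each library, stacked from 0 (alpha at the bottom, gamma, then beta), 4 mutant libraries at the left and 4 control libraries at the right. The share of Scnn1b above each bar runs from 18.2% to 19.2% in mutant libraries and from 24.3% to 25.6% in control libraries.

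The Scnn1b promoter is shown beside that of Slc26a4 because this is the other gene that changed, in the opposite direction. Its RefSeq window (GRCm38.p6, chr7:121864788-121865087, plus strand) reads, with a GC box, GGGCGG on the other strand, in capitals:
Scnn1b: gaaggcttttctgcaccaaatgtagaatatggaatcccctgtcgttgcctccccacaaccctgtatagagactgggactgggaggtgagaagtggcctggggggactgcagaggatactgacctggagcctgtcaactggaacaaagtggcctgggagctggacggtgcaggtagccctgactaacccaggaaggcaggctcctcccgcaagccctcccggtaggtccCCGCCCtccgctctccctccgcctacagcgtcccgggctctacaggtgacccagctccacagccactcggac
The box lies 22 to 17 bases before the start, the window holds 61.7% G and C, and it has no TATAAA box. The GC box letters, GGGCGG, occurred on either strand in 35.7% of all windows and in 4 of the 7 transport genes: Ano1, Cftr, Scnn1b and Scnn1g.

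CFTR is the cAMP-gated anion channel that is defective in cystic fibrosis. Cftr (ENSMUSG00000041301.15, chromosome 6, 18170687 to 18322768) had 11.9, 21.1, 23.6 and 20.5 CPM in mutant libraries, against 19.99, 17.98, 12.6 and 23.7 CPM in control libraries. The groups overlapped, with the lowest value in mutant library 1 and the next lowest in control library 3. The fitted ratio was 1.04 with a 95% interval from 0.722 to 1.49 (adjusted p 0.913), so changes within that interval could not be told from none. Per length Cftr was the lowest of the 10 genes in mutant libraries, at 2.48 ± 0.654 CPM per kilobase, and stood at 2.39 ± 0.593 in control libraries.

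Cftr is known to be dense in ionocytes, rare airway cells, of whose 7 listed markers 3 passed the filter on low counts. Foxi1, the factor that defines ionocytes, had 1 count in each of mutant libraries 1 and 2 and 0 in the other 6 libraries. Bsnd, a chloride channel subunit, had 0 counts in all 8. Ascl3 had 3 to 7 counts in mutant and 0 to 11 in control libraries. Atp6v1b1, a proton pump gene, was at 7.53 ± 0.813 CPM in mutant and 8.09 ± 1.12 CPM in control libraries, and Stap1, an adaptor gene, at 3.13 ± 0.460 and 4.16 ± 3.60 CPM (SD, n = 4 each), neither called. The summed CPM of the 7 ionocyte markers, 44.3 to 59.3 in mutant and 29.2 to 38.6 in control libraries, was mostly that of the proton pump gene Atp6v0d2, at 39.9 ± 6.01 and 22.6 ± 2.99 CPM, which macrophages also express. Their part in the Cftr values was not tested.

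Slc26a9 encodes an epithelial anion transporter that works beside CFTR. The gene (ENSMUSG00000042268.10, chromosome 1, 131744022 to 131771504) had 45.9, 56.0, 52.8 and 37.7 CPM in mutant libraries, against 47.9, 35.0, 30.0 and 40.7 CPM in control libraries. Mutant libraries 1 and 4 and control libraries 1 and 4 lay inside the range of the other group. The ratio was 1.25, with a 95% interval from 0.974 to 1.61 (adjusted p 0.245). Without controls 1 and 4 the log2 fold change was 0.56 and passed edgeR's quasi-likelihood test (adjusted p 0.0236). As given above, that fit called 3750 of all genes higher and 3338 lower.

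Slc12a2 encodes NKCC1, the basolateral sodium, potassium and chloride cotransporter. The gene (ENSMUSG00000024597.11, chromosome 18, 57878678 to 57946821) had 152.7, 148.6, 154.5 and 135.1 CPM in mutant libraries, against 123.6, 142.9, 134.4 and 114.0 CPM in control libraries. Only mutant library 4 reached into the control range. The ratio of 1.148, with a 95% interval from 1.01 to 1.31, missed the threshold after adjustment (p 0.0419, adjusted p 0.181 by edgeR's quasi-likelihood test).

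Ano1, a calcium-gated chloride channel gene (ENSMUSG00000031075.19, chromosome 7, 144588549 to 144751974), had 149.8, 122.8, 149.6 and 139.3 CPM in mutant libraries, against 110.4, 114.6, 94.7 and 143.7 CPM in control libraries. Control library 4 lay among the mutant libraries and the other controls below them. The ratio was 1.21, with a 95% interval from 0.9997 to 1.467 (adjusted p 0.199). Without control library 4 the ratio was 1.32 and passed edgeR's quasi-likelihood test (adjusted p 0.0362). That fit called 1206 of all genes higher and 749 lower. Ano1 also passed without controls 1 and 4 (adjusted p 0.00835), where 3750 of all genes were called higher and 3338 lower. Smooth muscle also uses Ano1, and the summed CPM of 5 smooth muscle markers ran from 445.2 to 633.8 in mutant and from 475.6 to 810.7 in control libraries. Of these 5 markers Des and Cnn1 were called lower, calls that were lost in 4 and 6 of the 8 fits with 1 library left out. The part of smooth muscle in the Ano1 values was not tested.

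Gabrp encodes the pi subunit of the GABA type A receptor, a ligand-gated chloride channel found in epithelia. The gene (ENSMUSG00000020159.8, chromosome 11, 33550781 to 33578959) had 113.5, 108.8, 103.6 and 104.0 CPM in mutant libraries, against 93.3, 114.5, 93.5 and 90.3 CPM in control libraries. Control library 2 was above every mutant library and the other controls below. The ratio of 1.10, with a 95% interval from 0.962 to 1.25, was not called (adjusted p 0.351).

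Clca1 was the most variable of the 10 genes and did not separate the groups. It encodes a secreted goblet cell protein that is not itself a channel, and its human counterpart raises the surface level of ANO1. The gene (ENSMUSG00000028255.6, chromosome 3, 145003817 to 145032776) had 279.1, 110.6, 259.5 and 64.4 CPM in mutant libraries, against 56.8, 100.4, 315.0 and 35.7 CPM in control libraries. The highest value of all was that of control library 3, and the lowest that of control library 4. The fitted ratio was 1.41 with a 95% interval from 0.489 to 4.04 (adjusted p 0.686), so the interval includes both a fall and a rise. From the lowest to the highest library Clca1 differed 4.33-fold within the mutant group and 8.84-fold within the control group, where the median gene differed 1.19-fold and 1.34-fold. Spreads at least as wide were seen in 0.308% of 14283 and 0.273% of 14286 genes, those averaging at least 1 on the log2 CPM scale with no library of the group at 0. Without control library 3 the ratio was 2.78, still not called (adjusted p 0.162).

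**Figure D3:**
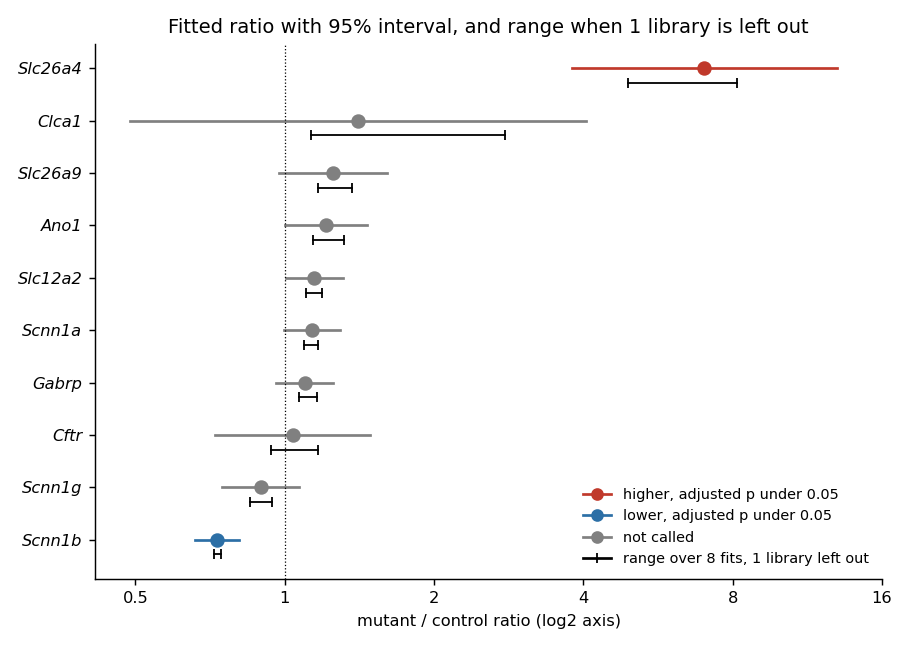
Fitted ratio of mutant to control on a log2 axis for the 10 genes, with its 95% interval, and in black below it the range of ratios when each of the 8 libraries was left out in turn. Slc26a4 at 7.01 and Scnn1b at 0.732 are called, the intervals of 7 of the other 8 genes include 1, and that of Slc12a2 begins at 1.01 without a call after adjustment.

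Of 6 goblet cell markers, 5 were called higher and 0 lower, against 5.45% and 2.36% of all genes tested. The call of Spdef was lost in 7 of the 8 fits with 1 library left out. Summed CPM of the 6 markers ran from 138.2 to 202.6 in mutant and from 25.2 to 55.0 in control libraries. Muc5ac, a secreted mucin, had 32.3, 32.1, 35.9 and 21.9 CPM in mutant libraries, against 4.38, 6.61, 7.76 and 6.10 CPM in control libraries. Control library 3, the highest for Clca1, was thus far below every mutant library for Muc5ac. Whether goblet cell RNA plays a part in the Slc26a4 values was not tested.

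Genes of interleukin 13 signalling, a list of 15 with 11 measured, rose in 3 cases and fell in 0. That was 27.3% called, against 7.81% of all genes tested. The median log2 fold change was 0.47, against -0.01 over all genes tested. Retnla, a secreted protein of airway and macrophage responses, had 2836, 1991, 1806 and 1579 CPM in mutant libraries, against 216.2, 187.4, 252.1 and 204.0 CPM in control libraries. Il33, an epithelial alarmin, was at 350.2 ± 25.2 CPM in mutant and 105.4 ± 5.99 CPM in control libraries (SD, n = 4 each), and Il13ra1, a chain of the interleukin 13 receptor, at 69.2 ± 1.03 and 58.2 ± 1.32 CPM. Il13 itself was not tested, at 0.136 to 0.576 CPM in mutant and 0.0588 to 0.461 CPM in control libraries, from 3 to 10 counts in mutant and 1 to 9 in control libraries. The call of Il13ra1 was lost in 6 of the 8 fits that left out 1 library: without each mutant library in turn and without control 2 or 3, with adjusted p up to 0.0807.

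Some genes of this list had values like those of Clca1. Profiles were compared by the root mean square distance over the 8 libraries between log2 CPM values, each centred on its own mean, among 13321 genes that averaged at least 1 on that scale and had a symbol that is not that of a predicted gene or clone. The nearest to Clca1 were Fcgbp, a goblet cell mucus protein, at 0.561, Prg4, a lubricating glycoprotein, at 0.637 and Alox15, a lipoxygenase induced by interleukin 13, at 0.648, against a spread of Clca1 about its own mean of 1.10. Fcgbp and Alox15 are both on the interleukin 13 list, and this likeness was looked for after the values of Clca1 had been seen. Fcgbp had 45.0, 19.9, 46.2 and 14.2 CPM in mutant libraries, against 9.59, 26.7, 37.6 and 17.0 CPM in control libraries. Alox15 had 13.1, 5.62, 6.95 and 5.34 CPM in mutant libraries, against 1.54, 3.10, 8.76 and 2.97 CPM in control libraries, so every mutant library was above all controls but control 3. Chil4, a chitinase-like protein, had 58.2, 16.1, 31.3 and 10.3 CPM in mutant libraries, against 2.46, 8.54, 62.8 and 0.512 CPM in control libraries. Mutant library 1 and control library 3 were high and control library 4 low for Clca1 and Chil4. Fcgbp, Alox15 and Chil4 did not pass edgeR's quasi-likelihood test (adjusted p 0.568, 0.278 and 0.741).

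**Figure D4:**
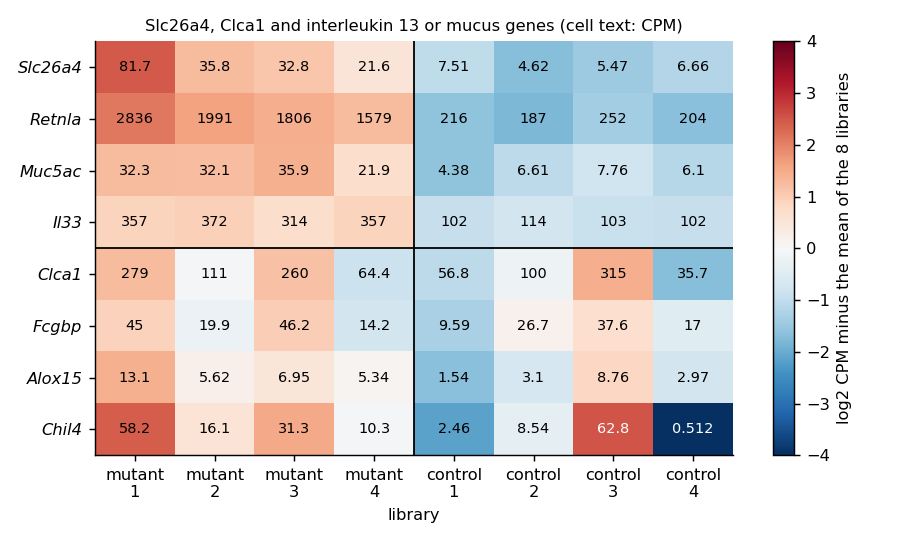
Log2 CPM minus the mean of the 8 libraries, as colour, with the CPM printed in each cell, for 8 genes in 4 mutant libraries (left of the line) and 4 control libraries. Slc26a4, Retnla, Muc5ac and Il33 in the upper rows separate the groups, and Clca1, Fcgbp, Alox15 and Chil4 in the lower rows are high in mutant libraries 1 and 3 and in control library 3.

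By the same distance, the profiles nearest to Slc26a4 were those of Chl1, a neural adhesion molecule, at 0.370, Slc13a2, a sodium-coupled dicarboxylate transporter, at 0.394 and Pla2g4c, a phospholipase, at 0.437, against a spread of Slc26a4 about its own mean of 1.42. Chl1 had 12.8, 7.84, 8.11 and 4.97 CPM in mutant libraries, against 1.25, 0.688, 0.646 and 0.665 CPM in control libraries. In all 3 mutant library 1 was the highest of the 8 and mutant library 4 the lowest of the mutant libraries, as for Slc26a4. The profiles nearest to Scnn1b were those of Zfp157, a zinc finger gene, at 0.051, Ivd, an enzyme of leucine breakdown, at 0.066 and Degs1, an enzyme of ceramide synthesis, at 0.070. These 3 were also called lower, with ratios from 0.725 to 0.745. Genes of both sets were picked for profiles near those of Slc26a4 or Scnn1b, so such likeness follows from the choice.

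In mutant libraries the order of the levels per length ran Scnn1a, Scnn1g, Clca1, Scnn1b, Gabrp, Ano1, Slc26a4, Slc12a2, Slc26a9 and Cftr, from 128.7 to 2.48 CPM per kilobase. Libraries of neighbours in that order overlapped for Scnn1g and Clca1, Clca1 and Scnn1b, Ano1 and Slc26a4, and Slc26a4 and Slc12a2, so these pairs were not separated beyond their spread. In control libraries the order was Scnn1a, Scnn1g, Scnn1b, Clca1, Gabrp, Ano1, Slc12a2, Slc26a9, Cftr and Slc26a4, from 113.2 to 1.95 CPM per kilobase, with overlap for Scnn1g and Scnn1b, Scnn1b and Clca1, Clca1 and Gabrp, and Cftr and Slc26a4. Slc26a4 thus stood at 13.8 ± 8.54 CPM per kilobase in mutant libraries, near Slc12a2, and at 1.95 ± 0.412 in control libraries, near Cftr (SD, n = 4 each).

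Regulators of ENaC and CFTR, 34 measured of a list of 36, rose in 8 cases and fell in 0. That was 23.5% called, against 7.81% of all genes tested, with a median log2 fold change of 0.05. St14, the membrane protease matriptase, had 131.2, 125.8, 118.6 and 117.8 CPM in mutant libraries, against 62.9, 68.1, 66.2 and 71.7 CPM in control libraries (adjusted p 8.81e-05 by edgeR's quasi-likelihood test). Tmprss4, another protease that can cleave ENaC, was 1.46-fold higher, and the Kunitz inhibitors of such proteases Spint1 and Spint2 were 1.33-fold and 1.29-fold higher. The call of Spint2 depended on single libraries, as given below, and the proteases Tmprss2 and Furin were not called (adjusted p 0.744 and 0.187). Prss8, the channel-activating protease prostasin, did not pass the test, with 75.8, 83.8, 76.2 and 77.9 CPM in mutant libraries and 85.9, 121.8, 117.3 and 91.1 CPM in control libraries (adjusted p 0.0636), although the groups did not overlap.

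Adora2b, the adenosine receptor that raises cAMP and so opens CFTR, stood at 29.6 ± 1.997 CPM in mutant and 11.02 ± 0.446 CPM in control libraries (SD, n = 4 each), a ratio of 2.69. Hsd11b2, which inactivates glucocorticoid and so guards the aldosterone receptor, was at 7.58 ± 2.27 and 1.89 ± 0.450 CPM, a ratio of 3.998. Ezr, the ezrin gene, was 1.44-fold and Syvn1, a ubiquitin ligase of the endoplasmic reticulum, 1.39-fold higher. Nedd4l, the ubiquitin ligase that removes ENaC from the membrane, was at 133.4 ± 10.8 CPM in mutant and 131.7 ± 24.8 CPM in control libraries, and the kinase gene Sgk1 at 157.1 ± 20.2 and 177.7 ± 38.8 CPM, neither called. Syvn1 lost its call in 6 and Spint2 in 5 of the 8 fits with 1 library left out, both of them without mutant library 1, 2 or 4 or control library 2 or 3 and Syvn1 also without mutant library 3. Their adjusted p reached 0.111 for Syvn1 and 0.0932 for Spint2. Regulators called lower, 0 in the fit of all libraries, were 1 without mutant library 4 or control library 1 and 2 without control library 4.

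Of 21 measured anion and cation-chloride transporters, 1 rose and 1 fell, or 9.52% called, near the 7.81% of all genes tested, with a median log2 fold change of 0.03. Slc4a5, a sodium bicarbonate cotransporter, had 28.8, 30.8, 34.7 and 35.1 CPM in mutant libraries, against 64.0, 71.2, 69.1 and 67.1 CPM in control libraries. Mutant values were about the same in all 4 libraries and far below every control, with a ratio of 0.477 (adjusted p 8e-05 by edgeR's quasi-likelihood test). Slc4a4, another cotransporter of the same kind, was at 25.9 ± 0.872 CPM in mutant and 18.6 ± 1.62 CPM in control libraries, a ratio of 1.39. The related Slc4a7 and Slc4a8 were not called (adjusted p 0.709 and 0.8288). Without control library 1 the list had 2 genes called higher and 2 lower, and without control library 4 it had 2 called lower.

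Among 23 measured sodium and proton transport genes 4 rose and 0 fell. That was 17.4% called, against 7.81% of all genes tested, with a median log2 fold change of 0.11. Slc5a1, the sodium glucose cotransporter, stood at 16.9 ± 2.60 CPM in mutant and 7.76 ± 1.51 CPM in control libraries (SD, n = 4 each). Fxyd4, a regulator of the sodium pump, was at 3.39 ± 0.789 and 0.902 ± 0.266 CPM, Slc9a4, a sodium proton exchanger, at 6.62 ± 0.966 and 4.08 ± 0.660 CPM, and Atp6v0d2 rose as given above. Slc9a4 lost its call without mutant library 2, 3 or 4 or control library 2 or 4 (adjusted p up to 0.0929). Genes of the list called lower were 1 without mutant library 4 and 2 without control library 1.

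Few other channels passed the test. Of 23 measured chloride and anion channels 1 rose, or 4.35%: Ano9, of the ANO1 family, at 8.97 ± 1.34 CPM in mutant and 4.18 ± 0.775 CPM in control libraries (SD, n = 4 each). This count was 2 without control library 1 and 4 without control library 4, and 1 channel was called lower without control library 1. Over lists this small 1 call is little to set against the 7.81% of all genes tested. Of 6 measured water channels 1 was called, or 16.7%, and of 4 measured GABA receptor genes 1, or 25%. Aqp4, a basolateral channel, rose to 16.02 ± 2.61 CPM in mutant libraries, against 8.74 ± 0.482 CPM in control libraries, and Gabre fell, with 9.59 ± 1.37 and 15.4 ± 1.28 CPM. Without control library 4, 2 water channels were called higher and 1 lower, and 2 GABA receptor genes were called lower. Without control library 1, 1 water channel was called lower. With all libraries kept, the groups did not overlap for 9 of the 23 chloride and anion channels, against 16.8% of all genes tested. They did not overlap for 1 of the 6 water channels and 1 of the 4 GABA receptor genes. Of 14 measured potassium channels 0 passed edgeR's test, and 0 of the 14 had groups without overlap. At an unadjusted p under 0.05 there were 3, or 21.4%, against 25.2% of all genes tested, and DESeq2 called 0. Without control library 1, 2 potassium channels were called lower. Of the 7 genes that make or use hydrogen peroxide with thiocyanate, an anion pendrin also carries, only Duox2 was measured, at 0.666 CPM in mutant and 0.588 CPM in control libraries.

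**Figure D5:**
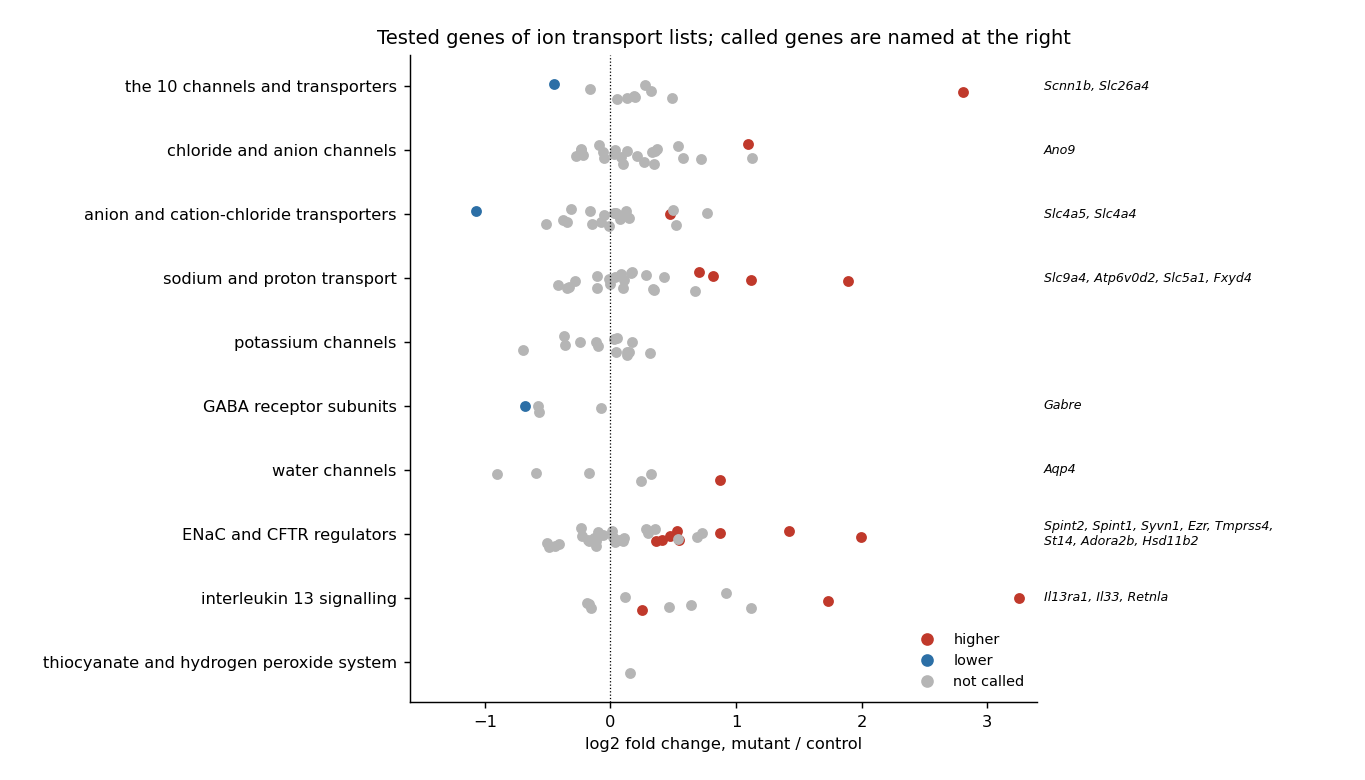
Log2 fold change of mutant over control for every tested gene of the 10 and of 9 lists of ion transport, regulator and signalling genes, 1 point a gene, red where called higher, blue where called lower and grey otherwise, with vertical position within a row of no meaning. Slc26a4 at 2.81 lies farthest right among the transport genes, and called genes are spread over 8 of the 10 rows.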

How the data were processed

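RNA was sequenced from 4 mutant and 4 control libraries, grouped by the genotype in the labels. Read pairs were counted per gene by the authors using featureCounts 1.6.2, per the file headers, on GENCODE M25 annotation of GRCm38.p6, without strand, and without reads that map to several places or genes. The deposited values are raw counts. The alignments are named for STAR, per the file headers; the submitters' processing notes also name Bowtie2 and Cufflinks, with no role. Library kits of both stranded and unstranded type appear in the labels.

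Symbols came from GENCODE M21, which matched 99.53% of the gene IDs. Genes were kept by filterByExpr (minimum count 10, total 15), scaled by TMM and tested two-sided with edgeR 4.0.16 (robust quasi-likelihood, Benjamini-Hochberg over all genes tested) in R 4.3.3, with intervals at 95%. DESeq2 1.42.0 and limma 3.58.1 were alternatives. CPM per kilobase uses the deposited gene length, not that of the transcripts present, so the order of levels between genes depends on that length. Reads carry no molecular identifiers, so floors of 3 counts cover counting error only.

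Named were the 10 genes, the called genes of each list (the 6 of lowest adjusted p, and the rest where a count includes them), cell type markers, and the 3 profiles nearest to each called member of the 10. Prss8, Tmprss2, Furin, Slc4a7, Slc4a8, Nedd4l, Sgk1, Duox2, Il13, Fcgbp, Alox15, Chil4, the profiles nearest to Clca1, and the TATAAA and GGGCGG motifs were chosen after values or sequences were seen. The 10 genes and all lists were chosen with earlier results of these data known. Promoter windows came from RefSeq. Clca1, Scnn1a and Slc12a2 had none here. The script was tested on simulated data. The labels do not say that replicate numbers mark pairs, and the main test did not pair the samples.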

Additional observations from a re-analysis of the deposited data

Results flagged for a closer look

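Gabrp, the GABA receptor pi subunit gene, stood at 114.5 CPM in control library 2, apart from the other 3 controls, with a gap of 0.870 of the control range. Il33, the epithelial alarmin gene, stood at 114.3 CPM in the same library, with a gap of 0.852 of the range. Chil4, the chitinase-like gene, stood at 62.8 CPM in control library 3, with a gap of 0.871 of the range. Each gap was past Dixon's 95% critical value for 4 samples. These 3 came from 72 groups of 4 libraries over 36 genes, and chance alone gives about 1 in 20.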

How the results depend on the processing

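Slc26a4 stayed called higher and Scnn1b called lower under DESeq2, DESeq2's size factors, library size scaling, no filter, a filter of at least 1 CPM in 4 libraries, limma-voom, removal of a GC trend and the replicate block, and no other of the 10 genes was called there. The replicate block gave Slc26a4 a log2 fold change of 2.68 (edgeR adjusted p 0.00305) and Scnn1b -0.45 (0.0127), with 865 genes higher and 371 lower. Libraries of the same number had correlations of 0.007, 0.129, -0.123 and 0.134, and not every sample was closest to its own number. DESeq2 called 1302 genes higher and 884 lower, against 924 and 401 in the edgeR test, and library size scaling 1103 and 304. With 1 library left out, calls ran from 515 to 1517 higher and from 146 to 1117 lower, and among the 10 genes from 1 to 2 higher (Ano1 added without control library 4) and 1 to 1 lower. Without controls 2 and 3, a choice made for their likeness, 223 genes were lower and 0 of the 10 higher; without controls 1 and 4, 3750 were higher and 3338 lower, with 3 of the 10 higher and 2 lower. Signs turned for genes that were not called: Cftr ran from -0.095 to 0.223 with 1 library left out (below 0 without mutant library 3 or control library 3) and was -0.176 without controls 2 and 3, Scnn1g was 0.016 without controls 2 and 3, and Clca1 was -0.229 without controls 1 and 4. The cause was not tested. Of 45 called genes among the 10, the lists and the cell type markers, 0 to 13 lost their call in a setting and 0 changed direction. The genes nearest in profile to Slc26a4 and Scnn1b were not among these 45. Lists under DESeq2 had up to 2 genes called lower.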
